A study of Mus musculus with 10 samples.

Results

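The sarcomere is the repeating unit of the muscle fibre, and the genes described here encode 26 of its parts and of its near relatives: thick and thin filament proteins, the M-band and Z-disc proteins that anchor them, the proteins that cap thin filaments, and a few non-muscle counterparts. They were chosen by name. Of the 3480 genes in the deposited table of FoxP1iSkmTg against Control muscle, those annotated as protein-coding (3043) were searched for 21 name stems (among them Myl, Myh, Mybp, Myom, Myoz, Mypn, Tnni, Tnnt, Tnnc, Tpm, Tmod, Lmod, Actn, Pdlim, Fhl, Ldb3, Neb, Ttn, Capz and Xirp), which gave 34 genes. From these, 8 were left out by name (Myl2, Mylpf, Mylk2, Mylk4, Myh1, Myom3, Mybpc2 and Xirp1), which leaves 26. The rule is written in names alone, but it was set with earlier results of these data known. The 8 genes left out include strongly changed ones, so counts and medians of the 26 do not cover the whole families. Among them are Myom3, Myl2 and Xirp1 (log2 fold changes of 2.08, 1.90 and 1.72 in FoxP1iSkmTg over Control mice) and Mylk4 (-1.94). The table itself also rests on measured values. Every gene in it had an unadjusted p under 0.05 in the comparison its authors made on these same mice, the highest being 0.04998. Each of the 26 genes therefore had to differ to be listed, and counts of members below are descriptions rather than evidence. Another 57 annotated genes of these names, among them Myh2, Myh4, Myh7, Actn2, Actn3, Ldb3, Myoz1, Tnnc2 and Tmod4, are not in the table and were not analysed here.

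RNA was sequenced from the tibialis anterior, a fast-twitch muscle at the front of the lower hind limb, of 5 FoxP1iSkmTg and 5 Control mice. FoxP1iSkmTg mice joined the FoxP1flSTOP allele, a Foxp1 transgene that stays silent until Cre removes a stop sequence, to HSA-MCM, a MerCreMer recombinase made in skeletal muscle fibres under the human skeletal alpha-actin promoter and switched on by tamoxifen. Control mice carried FoxP1flSTOP alone. All 10 mice were given tamoxifen by intraperitoneal injection, 80 mg/kg on each of 4 consecutive days. The methods of the study give females of 13 to 18 weeks, killed within days of the last injection and in one window after lights on. Because every mouse with MerCreMer also carried the Foxp1 allele that it opens, effects of Foxp1 and of activated Cre cannot be told apart in anything that follows.

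In a sarcomere, myosin heads on the thick filament pull on actin thin filaments, and troponin and tropomyosin on the thin filament open or close the sites they bind according to calcium. Titin spans from Z-disc to M-band and nebulin runs along the thin filament, while PDZ-LIM and four-and-a-half-LIM proteins dock signalling and structural partners at the Z-disc and along the filaments. Many of these proteins come from gene families whose members are used in fast fibres, slow fibres, embryonic fibres or non-muscle cells.

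Starting with the targeted gene, Foxp1 (chromosome 6, 98925338 to 99522721, mm10) had 5352, 2163, 5813, 1423 and 1289 normalized counts in FoxP1iSkmTg mice 1 to 5, against 371, 232, 389.9, 270.3 and 259.9 in Control mice 1 to 5. Every FoxP1iSkmTg mouse lay above every Control mouse. Means were 3208 ± 2199 in FoxP1iSkmTg and 305 ± 71.02 in Control mice (SD, n = 5 each), so Foxp1 was 10.5-fold higher, with a log2 fold change of 3.39 ± 0.44 (SE) and an adjusted p of 0.000631, and endogenous and transgenic transcripts are not separated in these counts. FoxP1iSkmTg mice 1 and 3, which had the most Foxp1 reads, also stood apart from mice 2, 4 and 5 elsewhere. Among the 3115 genes with enough reads to be tested, mice 1 and 3 were together the 2 highest or the 2 lowest of their group for 46.3%, against 11.5% to 34.3% for the other pairs of mice. For the sarcomere genes this held for 15 of 26 (57.7%), so results that rest on these mice are given with and without them. Reads over the listed genes ranged from 6620970 to 8375876 in FoxP1iSkmTg and from 7070772 to 8737660 in Control mice, and the sarcomere genes took 17.0% to 18.5% of them in FoxP1iSkmTg and 18.5% to 19.9% in Control mice. Nothing in the labels says how litters or cages were spread over the groups.

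Promoter sequence is shown for 6 members that passed the test described below: Fhl1, which was lowered most, Myh3, which was raised most, Pdlim7 and Pdlim1, which moved in opposite directions, Myh10, the non-muscle myosin gene that was higher, and Myom1, which shares a motif with Fhl1. Each line holds the 250 bases before a RefSeq transcription start (GRCm38.p6, the mm10 assembly), written 5′ to 3′ on the strand of the gene, with motif matches in capitals. The windows are chrX:56779433-56779682 (plus strand) for Fhl1, chr17:71019307-71019556 (plus) for Myom1, chr11:67078050-67078299 (plus) for Myh3, chr11:68691665-68691914 (plus) for Myh10, chr13:55513447-55513696 (minus) for Pdlim7 and chr19:40271617-40271866 (minus) for Pdlim1. The Fhl1 window belongs to the upstream of 2 listed starts, and the window of the other start held no motif match. The Fhl1 and Myom1 windows lie inside the annotated spans of these genes, and which start this muscle uses was not tested.
Fhl1: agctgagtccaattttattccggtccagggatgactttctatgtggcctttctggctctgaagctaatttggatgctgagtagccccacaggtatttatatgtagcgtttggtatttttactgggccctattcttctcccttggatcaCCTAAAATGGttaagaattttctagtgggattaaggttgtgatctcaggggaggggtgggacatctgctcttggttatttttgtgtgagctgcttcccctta
Myom1: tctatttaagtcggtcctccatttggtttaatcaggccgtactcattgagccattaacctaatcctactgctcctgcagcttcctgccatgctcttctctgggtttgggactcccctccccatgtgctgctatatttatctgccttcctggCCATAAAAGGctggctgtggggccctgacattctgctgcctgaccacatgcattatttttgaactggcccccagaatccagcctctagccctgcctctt
Myh3: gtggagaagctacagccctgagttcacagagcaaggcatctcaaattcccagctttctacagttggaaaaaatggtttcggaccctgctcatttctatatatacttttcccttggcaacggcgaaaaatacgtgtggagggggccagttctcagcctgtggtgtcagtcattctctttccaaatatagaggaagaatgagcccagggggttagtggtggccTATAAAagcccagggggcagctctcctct
Myh10: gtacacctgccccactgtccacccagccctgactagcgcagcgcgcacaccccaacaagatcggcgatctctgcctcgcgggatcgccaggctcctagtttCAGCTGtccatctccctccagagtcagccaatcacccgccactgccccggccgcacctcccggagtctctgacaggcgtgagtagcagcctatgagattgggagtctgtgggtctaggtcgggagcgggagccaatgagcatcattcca
Pdlim7: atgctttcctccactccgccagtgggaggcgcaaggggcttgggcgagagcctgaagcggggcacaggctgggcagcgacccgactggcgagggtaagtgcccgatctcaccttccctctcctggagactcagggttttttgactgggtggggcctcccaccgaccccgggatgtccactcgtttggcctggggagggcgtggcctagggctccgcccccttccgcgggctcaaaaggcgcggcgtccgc
Pdlim1: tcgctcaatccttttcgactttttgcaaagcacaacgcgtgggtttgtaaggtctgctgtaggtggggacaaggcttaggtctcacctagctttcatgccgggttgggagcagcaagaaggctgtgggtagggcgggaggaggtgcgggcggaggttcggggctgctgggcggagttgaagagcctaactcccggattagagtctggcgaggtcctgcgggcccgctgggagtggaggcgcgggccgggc

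The capitals mark a CArG box in Fhl1 and in Myom1, the site read by serum response factor. They mark a TATA box in Myh3, from 29 to 24 bases before the start, and an E-box of the form bound by myogenic bHLH factors in Myh10. No searched motif was present in the windows of Pdlim7 and Pdlim1. Across the 20 members with an entry in the RefSeq table (Lmod3, Myom2, Neb, Tnni2 and Tnnt3 are among those without one), a CArG box was found in 3 (Fhl1, Fhl2 and Myom1), which is 15% of them against 1.62% of the 27025 genes in the table. The box began 102 bases before the start in Fhl1, 99 bases before it in Myom1, and 96 and 31 bases before it in the 2 windows of Fhl2. A MEF2 box, bound by myocyte enhancer factor 2 proteins, was found in 3 members (Fhl2, Ttn and Xirp2), 15% against 3.42%. The E-box CAGCTG was found in 4 (Mybpc1, Myh10, Myl1 and Tpm2), 20% against 14.7%, and the E-box CACGTG in 0, against 6.86%. The MCAT element CATTCCT, bound by TEAD factors, was found in Tpm1 alone (5% against 5.19%), and TATAAA in Myh3 alone (5% against 8.94%). The forkhead motifs TGTTTAC and TATTTAC were found in 0 members, against 3.54% and 3.17% of all genes. Both strands were searched except for TATAAA, a gene with several starts counted once, and no matches overlapped in the members. A match is a run of letters and not a bound site.

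The comparison of FoxP1iSkmTg with Control muscle then asked which sarcomere transcripts differed and in which direction. Of the 26 genes, 25 had enough reads for the test, and 13 of those passed an adjusted p of 0.05 (edgeR quasi-likelihood test on the counts, Benjamini-Hochberg adjustment over 15846 genes): 4 were higher (Myh3, Myh10, Pdlim1 and Myom2) and 9 were lower (Fhl1, Pdlim7, Tpm1, Pdlim5, Neb, Myl1, Tnni2, Tpm2 and Myom1). That is 52% of the tested members, against 37.3% of all 3115 tested genes, where 17.5% were higher and 19.8% lower, and no test sets these shares apart. The median log2 fold change was -0.22 over the 25 members and 0.13 over all tested genes, and the median size of the change, sign aside, was 0.40 for members and 0.38 for all tested genes. In 14 members (56%) the 5 FoxP1iSkmTg and 5 Control values did not overlap, 3 with FoxP1iSkmTg higher and 11 with it lower, against 42.2% of all tested genes. A DESeq2 Wald test on the same counts passed 20 members, 6 higher and 14 lower, against 49.4% of the 3480 listed genes, the added ones being Ttn, Lmod2, Xirp2, Myh14, Capzb, Mybpc1 and Capza2. In whole muscle, less RNA of a gene per fibre and fewer fibres that express it cannot be told apart.

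**Figure D1:**
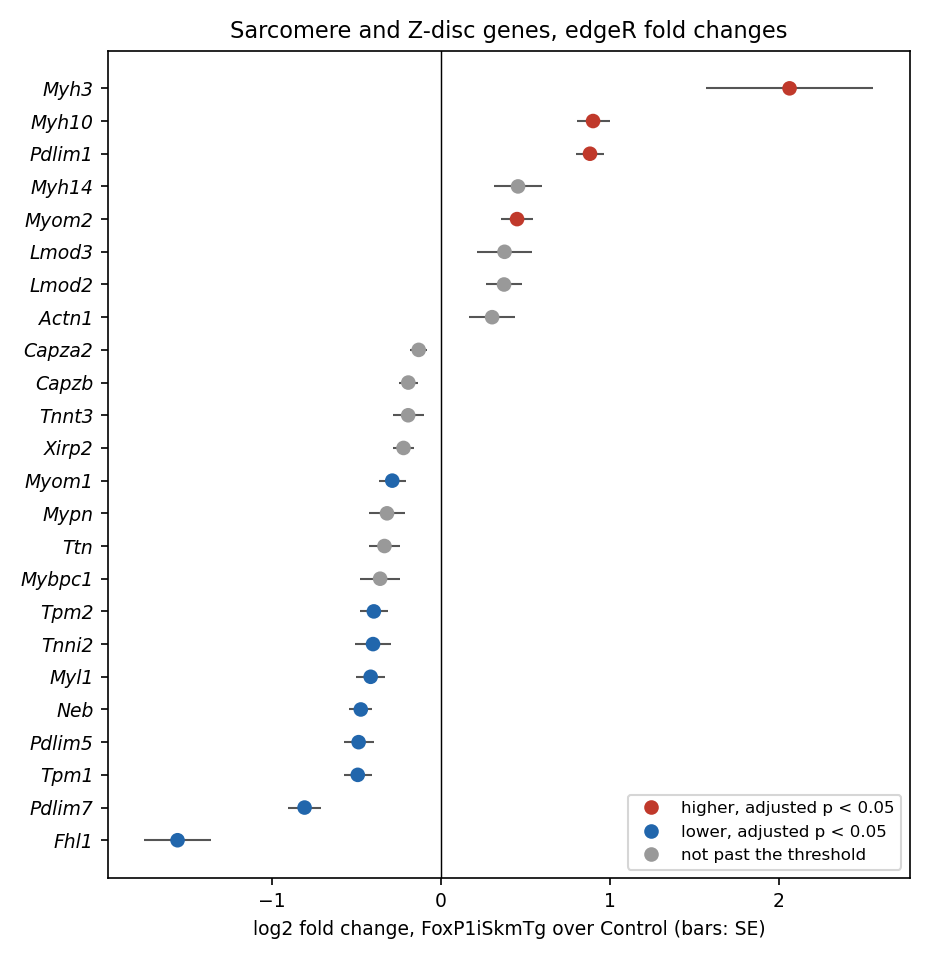
Each point is the log2 fold change of a gene, FoxP1iSkmTg over Control (5 mice each), with its standard error as a bar. Red points passed an adjusted p of 0.05 as higher (4 genes), blue points as lower (9 genes), and grey points did not pass (11 genes). Fhl1 lies farthest to the left at -1.56 and Myh3 farthest to the right at 2.06, with the widest bar.

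The members span a wide range of abundance. On the FPKM scale, which allows for gene length, Tnnt3 was the most abundant at 7134 ± 652 FPKM in FoxP1iSkmTg and 8172 ± 898 FPKM in Control mice (SD, n = 5 each), followed by Tnni2, Myl1, Tpm2 and Tpm1, which were between 1224 and 2872 FPKM on average in FoxP1iSkmTg and between 1724 and 3801 FPKM in Control mice. At the other end, Actn1, Myh3 and Fhl2 averaged 2.24, 2.43 and 0.676 FPKM in FoxP1iSkmTg mice, against 1.83, 0.586 and 0.246 FPKM in Control mice. Summed over the 26 genes, the FPKM came to 16920.2 ± 1241 in FoxP1iSkmTg and 20965 ± 1818 in Control mice (SD, n = 5 each), with ranges of 14999 to 18069 in FoxP1iSkmTg and 18061 to 22463 in Control mice. The sum is set mostly by the abundant troponin, tropomyosin and light chain genes, and its ranges just touch. Of the 12 members with more than 10000 normalized counts on average, a measure of reads and not of level per length, 6 were lower and 1 was higher, beside 26 lower and 12 higher among all 72 tested genes at that level.

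**Figure D2:**
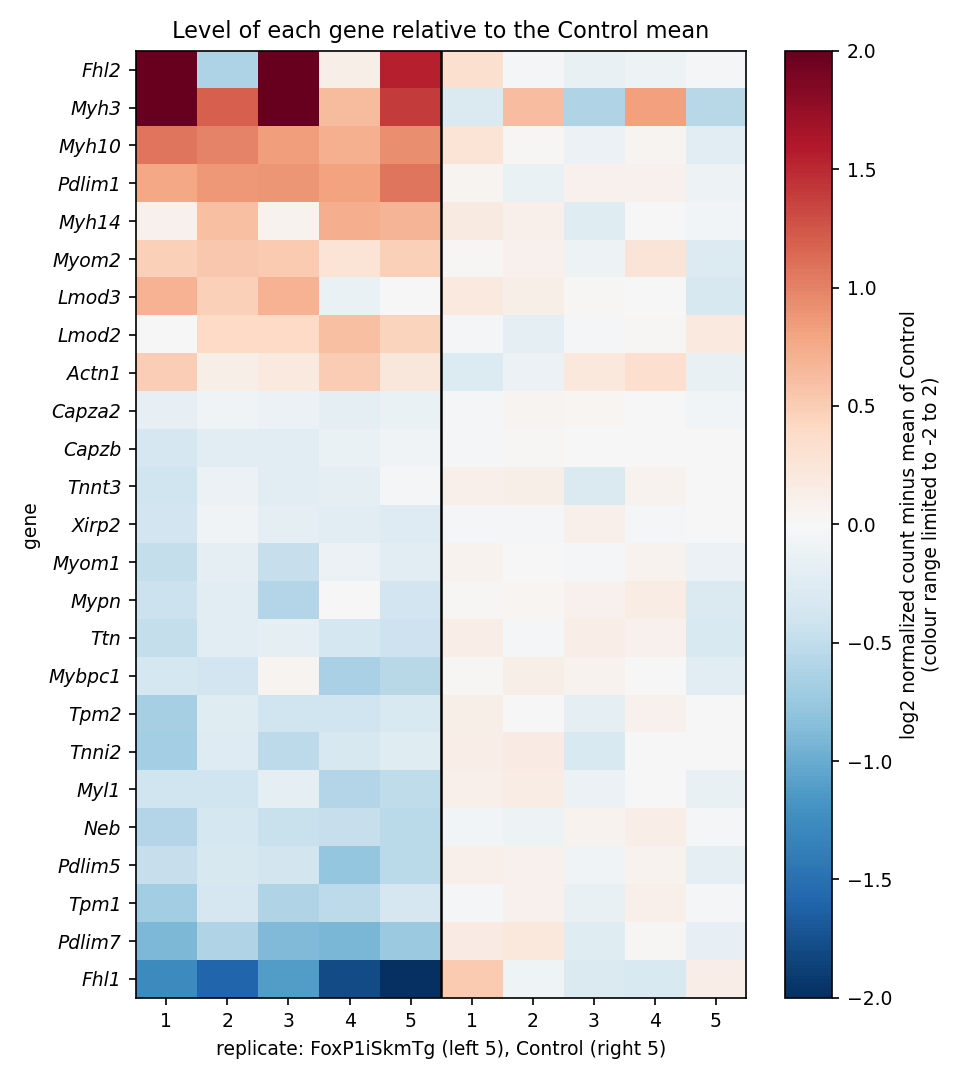
Rows are 25 of the genes and columns the mice, FoxP1iSkmTg 1 to 5 on the left and Control 1 to 5 on the right. Colour is the log2 normalized count minus the mean of the Control mice, limited to the range from -2 to 2, with red above and blue below that mean. Fhl1 and Pdlim7 are blue in all 5 FoxP1iSkmTg mice and Pdlim1 and Myh10 red in all 5, while Myh3 and Fhl2 are darkest in mice 1 and 3.

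Among thick filament genes, Myl1 fell. It encodes the essential light chains of fast skeletal myosin, which brace the lever arm of the heavy chain (chromosome 1, 66924295 to 66945404). It had 70674, 70353, 81367, 62108 and 65104 normalized counts in FoxP1iSkmTg mice 1 to 5, against 99839, 103330.0, 85598, 93666 and 84370.0 in Control mice 1 to 5. All 5 FoxP1iSkmTg values were below the lowest Control value, although FoxP1iSkmTg mouse 3 came close to it. On average Myl1 had 69921 ± 7349 in FoxP1iSkmTg and 93361 ± 8405 in Control mice (SD, n = 5 each), which is 1.34-fold lower (log2 fold change -0.42 ± 0.086 SE, adjusted p = 0.0111).

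Myh3 encodes embryonic myosin heavy chain, the form of developing and regenerating fibres (chromosome 11, 67078300 to 67102291). It had 468, 132, 463, 89.4 and 152 normalized counts in FoxP1iSkmTg mice 1 to 5, against 47.2, 87.9, 37.9, 102 and 39.1 in Control mice 1 to 5. Mice 1 and 3 were about as high as each other and far above the rest, mice 2 and 5 were above all Control mice by less, and mouse 4 lay within the Control range. Myh3 averaged 261 ± 188 in FoxP1iSkmTg and 62.8 ± 29.9 in Control mice (SD, n = 5 each) and was 4.18-fold higher, a log2 fold change of 2.06 ± 0.50 (SE, adjusted p = 0.0246), and the level stayed low, at 2.43 ± 1.76 FPKM in FoxP1iSkmTg and 0.586 ± 0.279 FPKM in Control mice (SD, n = 5 each). The call was lost without FoxP1iSkmTg mouse 1 (log2 fold change 1.74, adjusted p = 0.0602), FoxP1iSkmTg mouse 3 (1.76, 0.0546), Control mouse 1 (1.97, 0.0671), Control mouse 3 (1.93, 0.0702) or Control mouse 5 (1.93, 0.0659), and without both FoxP1iSkmTg mice 1 and 3 (0.99, 0.117).

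Mybpc1, which encodes slow myosin-binding protein C, a regulator of crossbridges that fast fibres also make, did not pass. Its counts ran from 33022 to 53416 normalized counts in FoxP1iSkmTg and from 44248 to 55561 in Control mice. FoxP1iSkmTg mouse 3 sat inside the Control range and the other 4 below it. For Mybpc1 this gave a log2 fold change of -0.36 ± 0.12 (SE, adjusted p = 0.0942). Without mouse 3 the log2 fold change was -0.48 (adjusted p = 0.00705) and without mice 1 and 3 it was -0.53 (0.00394), past the threshold in both. A stretch of 5.57% of its exonic bases overlaps Gm48752 on the other strand, and no source used here states if the counting was strand-specific.

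Titin and the M-band, which ties thick filaments together at the centre of the sarcomere, gave changes in both directions. Myom2 encodes the myomesin of fast fibres, a crosslinker of thick filaments at the M-band (chromosome 8, 15057653 to 15133541). It had 46524, 48692, 48038, 40243 and 46583 normalized counts in FoxP1iSkmTg mice 1 to 5, against 33971, 35589, 31067, 40122 and 27697 in Control mice 1 to 5. The groups did not overlap, but only just, since the lowest FoxP1iSkmTg mouse and the highest Control mouse, both numbered 4, were nearly level. On average Myom2 had 46016 ± 3359.8 in FoxP1iSkmTg and 33689 ± 4686 in Control mice (SD, n = 5 each), which is 1.37-fold higher (log2 fold change 0.45 ± 0.094 SE, adjusted p = 0.0127).

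Myom1, which encodes the myomesin present in every striated fibre (chromosome 17, 71002633 to 71126856), moved the other way. It had 25493, 31548, 25986, 32734 and 30331 normalized counts in FoxP1iSkmTg mice 1 to 5, against 37342, 35945, 34643, 37569.5 and 33022 in Control mice 1 to 5. The groups again just failed to overlap, with FoxP1iSkmTg mice 1 and 3 the lowest. Myom1 averaged 29219 ± 3292 in FoxP1iSkmTg and 35704 ± 1906 in Control mice (SD, n = 5 each) and was 1.22-fold lower, a log2 fold change of -0.29 ± 0.080 (SE, adjusted p = 0.0468). This call was lost when any one mouse other than FoxP1iSkmTg mouse 4 was left out, with log2 fold changes of -0.32 to -0.24 and adjusted p of 0.0502 to 0.110 in those 9 fits. Without FoxP1iSkmTg mice 1 and 3 the log2 fold change was -0.18 (0.187). Of its exonic bases, 1.98% overlap Myl12a on the other strand.

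Ttn, the giant spring that spans from Z-disc to M-band, had 246577, 292030.0, 302482, 269300.0 and 257828 normalized counts in FoxP1iSkmTg mice 1 to 5, against 376127, 333808, 374409, 364118 and 277847 in Control mice 1 to 5. FoxP1iSkmTg values were mostly below Control values, but Control mouse 5 fell among them. For Ttn this gave a log2 fold change of -0.34 ± 0.094 (SE, adjusted p = 0.0508), so it missed the threshold narrowly. It passed without FoxP1iSkmTg mouse 3 (-0.37, 0.0485) or without Control mouse 5 (-0.40, 0.0123).

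**Figure D3:**
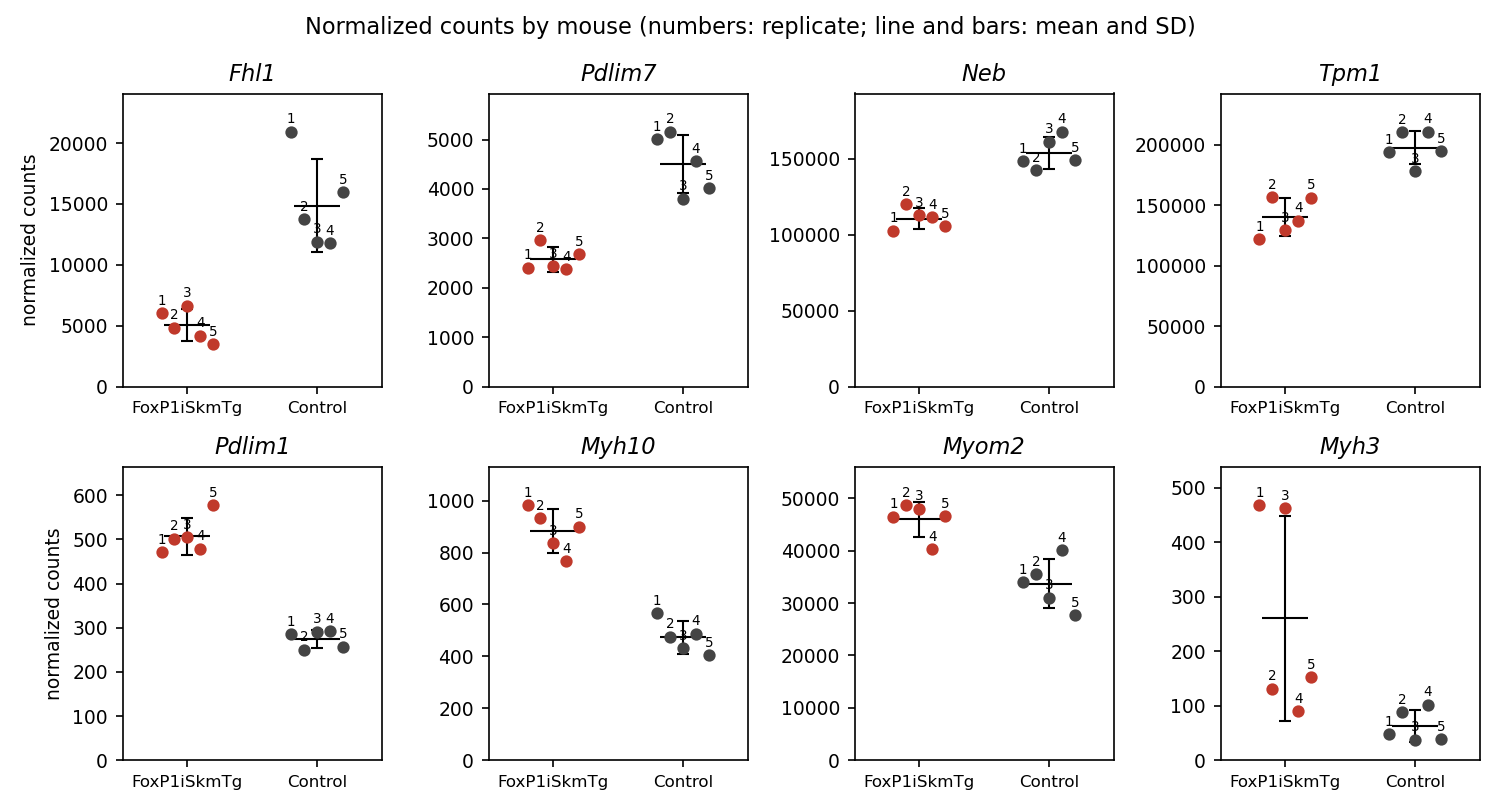
Normalized counts (vertical axes, from 0) of 8 genes that passed the test, with FoxP1iSkmTg mice in red on the left of each panel and Control mice in dark grey on the right. Digits are replicate numbers, the horizontal line is the mean and the bars are 1 SD (n = 5 each). Fhl1, Pdlim7, Neb and Tpm1 are lower in every FoxP1iSkmTg mouse, Pdlim1, Myh10 and Myom2 are higher in every one, and for Myh3 mice 1 and 3 stand far above the others.

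Of the members on the thin filament, those that passed were lower. Tpm1 encodes alpha-tropomyosin, the coiled coil that lies along actin and gates myosin binding (chromosome 9, 67022590 to 67049406). It had 122254, 156877, 129481, 137207 and 156276 normalized counts in FoxP1iSkmTg mice 1 to 5, against 194140.0, 210271, 178350.0, 210833 and 194871 in Control mice 1 to 5. Every FoxP1iSkmTg mouse was below every Control mouse, and mice 1 and 3 were the lowest. On average Tpm1 had 140419 ± 15670.0 in FoxP1iSkmTg and 197693 ± 13469 in Control mice (SD, n = 5 each), which is 1.41-fold lower (log2 fold change -0.49 ± 0.084 SE, adjusted p = 0.00397).

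Tpm2, which encodes beta-tropomyosin, its partner in the coiled coil (chromosome 4, 43514711 to 43523765), followed the same direction. It had 69897, 93134, 83754, 83494 and 88901 normalized counts in FoxP1iSkmTg mice 1 to 5, against 118986, 110519, 96812, 117011 and 109129 in Control mice 1 to 5. The groups were separate, with FoxP1iSkmTg mouse 1 well below the other mice. Tpm2 averaged 83836 ± 8754 in FoxP1iSkmTg and 110491 ± 8713 in Control mice (SD, n = 5 each) and was 1.32-fold lower, a log2 fold change of -0.40 ± 0.085 (SE, adjusted p = 0.0133).

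Tnni2 encodes fast skeletal troponin I, the inhibitory subunit that holds the thin filament off when calcium is low (chromosome 7, 142441808 to 142444410). It had 62599, 83853, 69809, 79958 and 84233 normalized counts in FoxP1iSkmTg mice 1 to 5, against 109177, 112032, 81229, 100331 and 100312 in Control mice 1 to 5. Here the groups overlapped, because Control mouse 3 was lower than FoxP1iSkmTg mice 2 and 5. Means were 76090.4 ± 9526 in FoxP1iSkmTg and 100616 ± 12038 in Control mice (SD, n = 5 each), so Tnni2 was 1.32-fold lower, with a log2 fold change of -0.40 ± 0.10 (SE) and an adjusted p of 0.0363. The call was lost without FoxP1iSkmTg mouse 1 (-0.34, 0.0703), FoxP1iSkmTg mouse 3 (-0.37, 0.0837), Control mouse 1 (-0.37, 0.0910), Control mouse 2 (-0.36, 0.0935), Control mouse 4 (-0.40, 0.0737) or Control mouse 5 (-0.40, 0.0685), and without both FoxP1iSkmTg mice 1 and 3 (-0.28, 0.146).

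Its partner Tnnt3, fast skeletal troponin T, which binds the complex to tropomyosin, did not pass and ran from 173346 to 222630.0 normalized counts in FoxP1iSkmTg and from 186043 to 248106 in Control mice. With a log2 fold change of -0.19 ± 0.092 (SE), Tnnt3 had an adjusted p of 0.283. Tnni2 lies at 142441808 to 142444410 and Tnnt3 at 142498836 to 142516009 on chromosome 7, both on the plus strand.

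Neb encodes nebulin, which runs along the thin filament and helps set its length (chromosome 2, 52136647 to 52378474). It had 102730.0, 120054, 112729, 111758 and 105729 normalized counts in FoxP1iSkmTg mice 1 to 5, against 148387, 142345, 161231, 167861 and 149137 in Control mice 1 to 5. The separation was clear, and within each group the mice lay close together. Neb averaged 110600.0 ± 6725 in FoxP1iSkmTg and 153792 ± 10431 in Control mice (SD, n = 5 each) and was 1.39-fold lower, a log2 fold change of -0.48 ± 0.068 (SE, adjusted p = 0.00124).

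The leiomodins start and lengthen thin filaments at their pointed ends. Lmod2 ran from 1725 to 2628 normalized counts in FoxP1iSkmTg and from 1541 to 1996 in Control mice, and 4 of 5 FoxP1iSkmTg mice were above every Control mouse, with mouse 1 the exception. For Lmod2 this gave a log2 fold change of 0.37 ± 0.10 (SE, adjusted p = 0.0505), just short of the threshold. It passed without FoxP1iSkmTg mouse 1 (0.46, 0.00643), without Control mouse 5 (0.43, 0.0402) and without FoxP1iSkmTg mice 1 and 3 (0.48, 0.00546). Lmod3 ran from 1804 to 3201 normalized counts in FoxP1iSkmTg and from 1592 to 2262 in Control mice, with mice 1 and 3 highest, and gave a log2 fold change of 0.38 (adjusted p = 0.215).

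At the barbed end, held in the Z-disc, thin filaments are capped by the alpha and beta subunits of CapZ, from Capza2 and Capzb. Neither passed, though in both every FoxP1iSkmTg mouse was below every Control mouse. Capzb ran from 3606 to 4351 normalized counts in FoxP1iSkmTg and from 4498 to 4636 in Control mice. With a log2 fold change of -0.19 ± 0.058 (SE), Capzb had an adjusted p of 0.0648, and it passed without FoxP1iSkmTg mouse 5 (-0.23, 0.0400). Capza2 ran from 4494 to 4865 normalized counts in FoxP1iSkmTg and from 4927 to 5266 in Control mice, a log2 fold change of -0.13 (adjusted p = 0.138). These are small differences, at 1.14-fold and 1.10-fold lower. For Capzb the FoxP1iSkmTg mice spread more widely (SD 284) than the Control mice (SD 55.9).

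The Z-disc held the member that fell most. Fhl1 encodes a four-and-a-half-LIM protein, a scaffold at the sarcomere and nucleus whose mutations cause human muscle disease (chromosome X, 56731787 to 56793346). It had 6031, 4836, 6657, 4181 and 3493 normalized counts in FoxP1iSkmTg mice 1 to 5, against 20931, 13731, 11912, 11785 and 15966 in Control mice 1 to 5. All FoxP1iSkmTg mice were far below all Control mice, and mice 1 and 3 were the highest of their group. Fhl1 averaged 5039 ± 1301 in FoxP1iSkmTg and 14865 ± 3792 in Control mice (SD, n = 5 each) and was 2.95-fold lower, a log2 fold change of -1.56 ± 0.20 (SE, adjusted p = 0.000530). Leaving out 1 mouse at a time gave log2 fold changes of -1.68 to -1.41, and without FoxP1iSkmTg mice 1 and 3 together it was -1.83 (adjusted p = 0.0001624).

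Its paralogue Fhl2, the four-and-a-half-LIM gene of heart, was barely detected. It had 32.8, 5.35, 42.2, 8.86 and 24.2 normalized counts in FoxP1iSkmTg mice 1 to 5, against 10.2, 7.99, 7.38, 7.66 and 8.03 in Control mice 1 to 5. Mice 1, 3 and 5 were above all Control mice, and mice 2 and 4 were not. With so few reads it stayed out of the test. With the count filter lifted its log2 fold change was 1.44, at an adjusted p of 0.100, and the DESeq2 test gave 1.46 (0.0583).

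The PDZ-LIM family, whose members join actinin-bound filaments to kinases and other partners, split. Pdlim7, also called enigma, had 2408, 2962, 2438, 2375 and 2679.5 normalized counts in FoxP1iSkmTg mice 1 to 5, against 5002, 5157, 3801, 4556 and 4009 in Control mice 1 to 5 (chromosome 13, 55495795 to 55513676). FoxP1iSkmTg values were tightly grouped and all well below Control. Means were 2573 ± 249 in FoxP1iSkmTg and 4505 ± 595 in Control mice (SD, n = 5 each), so Pdlim7 was 1.75-fold lower, with a log2 fold change of -0.81 ± 0.097 (SE) and an adjusted p of 0.000362.

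Pdlim5, the enigma homologue, had 4725, 5189, 5031, 3818 and 4479 normalized counts in FoxP1iSkmTg mice 1 to 5, against 7008, 6888, 6179, 6839 and 5689.6 in Control mice 1 to 5 (chromosome 3, 142239590 to 142395696). All FoxP1iSkmTg mice were below all Control mice, mouse 4 the farthest. On average Pdlim5 had 4648 ± 539 in FoxP1iSkmTg and 6520.5 ± 566 in Control mice (SD, n = 5 each), which is 1.40-fold lower (log2 fold change -0.49 ± 0.089 SE, adjusted p = 0.00582).

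Pdlim1, also called CLP36 or elfin, which heart and many non-muscle cells also make, went in the other direction (chromosome 19, 40221173 to 40271842). It had 471, 502, 506, 479 and 577 normalized counts in FoxP1iSkmTg mice 1 to 5, against 285, 249.98, 291, 292 and 257 in Control mice 1 to 5. The groups were far apart and their spread small, which gave the lowest adjusted p of all members. Pdlim1 averaged 507 ± 41.9 in FoxP1iSkmTg and 275 ± 19.99 in Control mice (SD, n = 5 each) and was 1.84-fold higher, a log2 fold change of 0.88 ± 0.080 (SE, adjusted p = 5.86e-05). Its level remained low beside its relatives, at 5.45 ± 0.453 FPKM in FoxP1iSkmTg and 2.96 ± 0.217 FPKM in Control mice (SD, n = 5 each), whereas Pdlim7 had 29.98 ± 2.90 FPKM in FoxP1iSkmTg and 52.5 ± 6.92 FPKM in Control mice (SD, n = 5 each).

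Mypn, which encodes myopalladin, a link between nebulin and alpha-actinin, ran from 5343 to 7969 normalized counts in FoxP1iSkmTg and from 6544 to 8881 in Control mice. Control mouse 5 was below FoxP1iSkmTg mice 2 and 4, while the other Control mice were above every FoxP1iSkmTg mouse. For Mypn this gave a log2 fold change of -0.32 ± 0.11 (SE, adjusted p = 0.108). It passed without FoxP1iSkmTg mouse 4 (-0.41, 0.0238). Xirp2, which encodes an actin-binding repeat protein at the Z-disc edge and myotendinous junction, ran from 41809.8 to 51862 normalized counts in FoxP1iSkmTg and from 52836 to 58532 in Control mice with no overlap. With a log2 fold change of -0.22 ± 0.065 (SE), Xirp2 had an adjusted p of 0.0603, and it passed without FoxP1iSkmTg mouse 2 (-0.26, 0.0341).

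The remaining genes encode non-muscle relatives of sarcomere proteins. Myh10 encodes the heavy chain of non-muscle myosin IIB (chromosome 11, 68691559 to 68816632). It had 982, 931, 836, 767 and 899.9 normalized counts in FoxP1iSkmTg mice 1 to 5, against 566, 476, 432, 488 and 403 in Control mice 1 to 5. The lowest FoxP1iSkmTg mouse was well above the highest Control mouse. Myh10 averaged 883 ± 83.9 in FoxP1iSkmTg and 473 ± 62.1 in Control mice (SD, n = 5 each) and was 1.87-fold higher, a log2 fold change of 0.90 ± 0.098 (SE, adjusted p = 0.000202).

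Myh14, the heavy chain of non-muscle myosin IIC, ran from 902 to 1426 normalized counts in FoxP1iSkmTg and from 724 to 969.6 in Control mice. FoxP1iSkmTg mice 2, 4 and 5 were above every Control mouse, and mice 1 and 3 were inside the Control range. For Myh14 this gave a log2 fold change of 0.46 ± 0.14 (SE, adjusted p = 0.0745). It passed without FoxP1iSkmTg mouse 1 (0.54, 0.0348), without mouse 3 (0.54, 0.0319) and without both (0.67, 0.00102). Actn1, a non-muscle alpha-actinin, ran from 191 to 251 normalized counts in FoxP1iSkmTg and from 145 to 223 in Control mice. With a log2 fold change of 0.30 ± 0.14 (SE), Actn1 had an adjusted p of 0.244, and 8.15% of its exonic bases overlap Gm47766 or Gm47767 on the other strand.

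Mice 1 and 3 thus did not sit at the same end for every gene. They were the 2 highest FoxP1iSkmTg mice for 6 members (Fhl1, Myl1, Myh3, Mybpc1, Fhl2 and Lmod3) and the 2 lowest for 9 (among them Tpm1, Tnni2, Myom1, Lmod2, Myh14, Capzb, Mypn and Tnnt3). With both left out, a comparison chosen after seeing the data, 13 members passed, 5 higher and 8 lower. Tnni2, Myh3 and Myom1 were no longer among them and Lmod2, Myh14 and Mybpc1 were added. Over all genes 786 then passed (343 higher and 443 lower), against 1161 with all mice, so the share of 37.3% given above does not apply to this fit. Foxp1 itself kept a log2 fold change of 2.41 in mice 2, 4 and 5. Fhl1, Tpm1 and Myl1, where mice 1 and 3 lay at one end, still passed (-1.83, -0.40 and -0.50). Members that passed in neither fit gave 0.13 for Lmod3, against 0.38 with all mice, -0.21 for Mypn, against -0.32, -0.12 for Tnnt3, against -0.19, and -0.14 for Capzb, against -0.19. Whether the amount of Foxp1 bears on the difference between mice 1 and 3 and the others was not tested.

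Ratios of related genes within a mouse do not depend on library scaling. They are ratios of normalized counts, with no correction for gene length, so each is compared between the groups and says nothing of which gene is more abundant. For 7 pairs whose fold changes had the same sign, the log2 ratio was compared by a two-sided exact permutation test over the 5 and 5 mice, whose smallest possible p is 0.00794. The Tnni2 to Tnnt3 ratio was 0.359 to 0.401 in FoxP1iSkmTg and 0.419 to 0.452 in Control mice, with no overlap (exact p = 0.00794, 0.0556 after Benjamini-Hochberg adjustment over the 7 pairs). The Pdlim5 to Pdlim7 ratio was 1.61 to 2.06 in FoxP1iSkmTg and 1.34 to 1.63 in Control mice (exact p = 0.0159, adjusted 0.0556), and that of Myh10 to Myh14 was 0.538 to 1.08 in FoxP1iSkmTg and 0.486 to 0.597 in Control mice (exact p = 0.0318, adjusted 0.0741). None of the 7 passed after adjustment, but a single pair at the smallest possible p adjusts to 0.0556. The Tnni2 to Tnnt3 ratio thus could not pass unless another pair also reached that p, so its failure to pass decides nothing. The other pairs, Tpm1 to Tpm2, Neb to Ttn, Capzb to Capza2 and Lmod2 to Lmod3, had adjusted exact p of 0.167 to 0.968.

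For pairs whose members went in opposite directions the ratio is given without a test. The Myom2 to Myom1 ratio was 1.23 to 1.85 in FoxP1iSkmTg and 0.839 to 1.07 in Control mice. The Pdlim1 to Pdlim7 ratio was 0.169 to 0.216 in FoxP1iSkmTg and 0.0485 to 0.0765 in Control mice, and that of Pdlim1 to Pdlim5 was 0.0967 to 0.129 in FoxP1iSkmTg and 0.0363 to 0.0471 in Control mice. In all 3 the groups were separate.

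**Figure D4:**
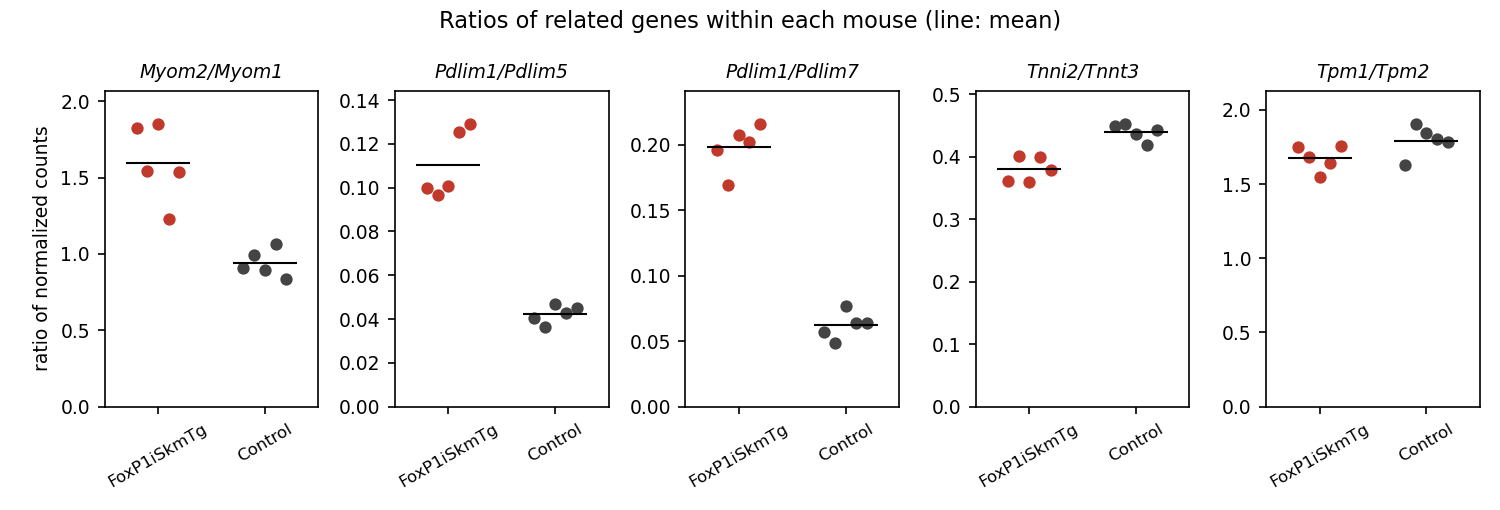
Ratios of normalized counts within each mouse for 5 gene pairs, with FoxP1iSkmTg mice in red on the left, Control mice in dark grey on the right and the mean as a line. Ratios of Pdlim1 to Pdlim5 and Pdlim7 and of Myom2 to Myom1 are higher in every FoxP1iSkmTg mouse, Tnni2 to Tnnt3 is lower in every one (0.359 to 0.401 in FoxP1iSkmTg and 0.419 to 0.452 in Control mice), and Tpm1 to Tpm2 overlaps.

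The same structures hold genes outside the 26, taken here from longer lists that also hold members. Their counts therefore repeat, in part, the results above. Members were 7 of the 16 listed Z-disc genes, 9 of 12 thin filament, 3 of 7 thick filament and 4 of 8 M-band genes. In the lists further below they were 1 of 5 slow, 4 of 10 fast, 1 of 5 developmental and 3 of 5 non-muscle actomyosin genes. In a list of 30 Z-disc genes, 16 were listed and 15 tested, of which 7 were higher and 4 lower, with a median log2 fold change of 0.36 beside 0.13 for all tested genes. The higher ones included Xirp1 (3.31-fold higher, adjusted p = 7.9e-07), Cryab (1.98-fold higher, adjusted p = 5.66e-05) and Csrp3 (5.56-fold higher, adjusted p = 0.00165), which encode a Xin repeat protein, alpha-B crystallin and muscle LIM protein. The lower ones were Fhl1, Pdlim5, Pdlim7 and Nexn, the last an actin-binding protein gene at -0.75 (adjusted p = 0.0042). Csrp3 was highest in mice 1 and 3 and gave 1.84 without them (0.00195), and the list then had 6 higher and 4 lower. In a list of 23 thin filament genes 12 were listed, 1 higher and 5 lower (median -0.19). The lower ones were the members Tpm1, Tpm2, Tnni2 and Neb, together with Acta1 from outside the 26. The higher one was Actc1, cardiac alpha-actin, at 10483 ± 6556 normalized counts in FoxP1iSkmTg and 1159.8 ± 459 in Control mice, a log2 fold change of 3.18 (adjusted p = 0.00114). It was also highest in mice 1 and 3, at 20450 and 13522 normalized counts against 4156 to 7867 in the other FoxP1iSkmTg mice, and gave 2.41 without them (0.000801). Acta1, skeletal alpha-actin, was lower at 303874 ± 43036 normalized counts in FoxP1iSkmTg and 468659 ± 25458 in Control mice, a log2 fold change of -0.63 (0.00216).

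Of 19 thick filament genes 7 were listed, 3 higher and 2 lower (median -0.36). The higher ones were Myh3, Myl2 and Mybpc2, the lower ones Myl1 and Mylpf. Without mice 1 and 3, 0 were higher and 4 lower (Myh1, Myl1, Mylpf and Mybpc1). Of 12 M-band genes 8 were listed, 3 higher and 1 lower (median 0.03), the higher ones being Myom2, Myom3 (4.22-fold higher, adjusted p = 9.02e-05) and Obsl1 (2.69-fold higher, adjusted p = 9.14e-05), myomesin 3 and a cytoskeletal adaptor. Of 12 sarcomere assembly factors 6 were listed, 5 higher and 1 lower (median 0.51). Hspb7 (2.97-fold higher, adjusted p = 0.000566), Klhl40 (1.68-fold higher, adjusted p = 0.00253), Alpk3 (1.38-fold higher, adjusted p = 0.000855) and Hspb1 (1.47-fold higher, adjusted p = 0.000817) were on the higher side, a small heat shock protein of muscle, a thin filament stabilizer, an alpha-kinase and another small heat shock protein, and Klhl41 was the lower one at -0.19 (adjusted p = 0.0427). Nexn, Mybpc2 and Klhl41 are named because they fall in small counts, a choice made after their values were seen.

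By fibre type, 5 of 14 genes in a list of slow isoforms were in the table, and all 5 were higher (Myl2, Casq2, Csrp3, Ankrd2 and Pdlim1, median 1.06). The rest of that list (Myh7, Myl3, Tnni1, Tnnt1, Tnnc1, Tpm3, Atp2a2, Myoz2 and Myh7b) was not in the table and was not analysed here. A shift of fibre type was not tested. Without mice 1 and 3 only Casq2, Csrp3 and Pdlim1 passed, with Myl2 at 1.79 (adjusted p = 0.0669). The list does not hold Mybpc1, the slow myosin-binding protein C counted with the thick filament, which went the other way at -0.36 without passing. Without mice 1 and 3 Mybpc1 was at -0.53 and passed as lower (adjusted p = 0.00394). Of the 5, Myl2 is the slow regulatory light chain (3.74-fold higher, adjusted p = 0.0244), Casq2 the cardiac and slow calsequestrin (1.56-fold higher, 0.00846), and Csrp3 and Ankrd2 are also known as stretch-responsive genes. Of 17 genes in a list of fast isoforms 10 were in the table, 7 lower and 1 higher (median -0.49), or 6 lower and 0 higher without mice 1 and 3. Its genes Myh2, Myh4, Tnnc2, Actn3, Myoz1, Atp2a1 and Casq1 were not in the table. This list does not hold Myom2, the fast-fibre myomesin counted with the M-band, which was higher at 0.45 (0.0127). The lower ones were the members Myl1, Tnni2 and Tpm1 together with Mylk4 (3.84-fold lower, adjusted p = 0.000102), Mylpf (1.67-fold lower, adjusted p = 0.00130), Mylk2 (1.93-fold lower, adjusted p = 0.00694) and Pvalb (1.41-fold lower, adjusted p = 0.0125), which encode 2 myosin light chain kinases, the fast regulatory light chain and parvalbumin. The higher one was Mybpc2, fast myosin-binding protein C, at 0.40 (adjusted p = 0.0287).

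Of 15 developmental fibre genes 5 were listed, 3 higher (Myh3, Actc1 and Chrna1) and 1 lower (Myf6), with a median of 1.26, and 2 higher and 1 lower without mice 1 and 3, where Myh3 no longer passed. Chrna1 encodes the alpha subunit of the muscle acetylcholine receptor and was 2.40-fold higher (adjusted p = 6.24e-05). Of 18 transcription factors of sarcomere genes 6 were listed, 0 higher and 2 lower (median -0.29), namely Srf (1.34-fold lower, adjusted p = 0.00679), serum response factor, and Myf6 (1.46-fold lower, adjusted p = 0.00917), a myogenic bHLH factor. Of 11 non-muscle actomyosin genes 5 were listed, 1 higher (Myh10) and 1 lower (median 0.30), the lower one Actg1 (1.45-fold lower, adjusted p = 0.00775), cytoplasmic gamma-actin. Without mice 1 and 3 the counts of the other lists were 3 higher and 0 lower for the M-band, 5 and 0 for assembly factors, 1 and 2 for transcription factors, 2 and 1 for non-muscle actomyosin, and 2 and 4 for the thin filament. The counts with all mice stand beside the 37.3% of all tested genes that passed, and each list was taken from a table already selected for differing. Those without mice 1 and 3 stand beside a fit in which 786 genes passed in all, against 1161 with all mice.

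Markers of skeletal fibres were present throughout: Ckm averaged 173008 ± 9974 normalized counts in FoxP1iSkmTg and 192633 ± 8127 in Control mice, and the 7 listed of 15 identity markers summed to 27799 to 34855 FPKM in FoxP1iSkmTg and 39518 to 48348 FPKM in Control mice, 4 of them lower and 0 higher. Markers of other cell types in muscle were mostly not in the table. No endothelial, mural, fibro-adipogenic, macrophage, Schwann cell, erythroid or heart marker of the lists was listed, so their levels were not analysed here. Of 11 smooth muscle markers, which bear on Myh10, Actn1 and Pdlim1, only Smtn and Actg2 were listed, with summed levels of 16.3 to 19.1 FPKM in FoxP1iSkmTg and 18.4 to 22.3 FPKM in Control mice (Smtn did not pass and Actg2 had too few reads). Of 11 satellite cell markers 4 were listed, and they summed to 36.1 to 45.4 FPKM in FoxP1iSkmTg and 31.2 to 35.3 FPKM in Control mice. Of the 4 only Itga7, an integrin that fibres also express, was higher (log2 fold change 0.69, adjusted p = 0.000163), while Cd34, Sdc4 and Spry1 did not pass. Scx of the tenocyte list, Cd3e of the lymphocyte list and Plin1 of the adipocyte list did not pass either, S100a9 of the neutrophil list had too few reads, and Car3, an adipocyte marker that fibres make in quantity, was 2.60-fold lower (adjusted p = 0.00118). The part of other cells in the rise of Myh10 and Pdlim1 was not tested.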

How the data were processed

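The authors had poly-A RNA of the muscles sequenced from both ends. HISAT2 2.0.5, DESeq2 1.20.0 and mm10 stand in the submitters' processing notes, but the published methods name STAR with HTSeq, so the aligner is not settled, and no source used here says how reads shared by similar genes (tropomyosins, myosin heavy chains) were assigned. The authors deposited, per gene and mouse, read counts, the normalized signal that results from dividing those by DESeq2 size factors, and FPKM, and also log2 fold changes and p-values of their own comparison, which were not used except for the highest p and the number of genes adjusted over (15846). The table holds only genes with a low p, so its read sums are not the sequencing depth, which is not settled here. The p-values of the fits set the difference between groups against the spread estimated between 5 mice a group.

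Counts were scaled with the authors' size factors, filtered with filterByExpr at a minimum count of 10 (3115 of 3480 genes kept) and tested two-sided by glmQLFit and glmQLFTest of edgeR 4.0.16 (R 4.3.3), since scaling by TMM would rest on genes selected to differ. The spread between mice was still estimated from these selected genes alone, so SE and p may be too small. The SE was taken as the size of the log2 fold change over the root of the F statistic. P-values were adjusted by Benjamini-Hochberg over 15846 genes, and the threshold was 0.05. Per-mouse values are the deposited normalized counts, and levels of different genes are compared as FPKM, while ratios of normalized counts are compared only between groups. Within-mouse ratios were tested with scipy 1.17.1. The fit was tested on simulated data first. Alternatives were TMM, size factors of the listed genes, DESeq2 1.42.0, other count filters, leaving out each mouse, and a replicate block. Promoters come from RefSeq (GRCm38.p6), overlaps of exons from GENCODE. The sarcomere genes and the gene lists were chosen with earlier results of these data known. Named are Foxp1, every member except 1 that is not reported here, and up to 4 genes of each list with the smallest adjusted p.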

Additional observations from a re-analysis of the deposited data

Results flagged for a closer look

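In 3 of 54 groups of 5 mice, a single mouse lay far from the other 4 (its gap to the next mouse was over 0.71 of the range of the group), about as many as the 2.7 that chance gives. Myom2 was at 40243 normalized counts in FoxP1iSkmTg mouse 4, below the next mouse at 46524. Xirp2 was at 58532 normalized counts in Control mouse 3, above the next at 54119.6. Fhl2 was at 10.2 normalized counts in Control mouse 1, above the next at 8.03.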

How the results depend on the processing

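No log2 fold change of a member or of Foxp1 changed sign under any alternative. Of 425 values of single members under alternatives, 372 stayed on their side of the threshold, 27 lost it and 26 gained it. With the DESeq2 Wald test 840 genes were higher in all, 20 members passed and 14 members were lower. With FoxP1iSkmTg mice 1 and 3 left out, 343 genes were higher. Leaving out each mouse in turn gave 835 to 1230 genes (372 to 593 higher, 447 to 637 lower), 10 to 14 members (3 to 5 higher, 7 to 10 lower), a median of -0.24 to -0.18 over members, and a Foxp1 log2 fold change of 3.07 to 3.60. Of the called members, 10 passed in each of these fits, and Tnni2, Myh3 and Myom1 did not. TMM scaling, which moved the median of all genes by 0.03, gave 1259 genes (692 higher and 567 lower, 55% higher against 46.9%), added Ttn (-0.31, adjusted p = 0.0486) and Lmod2 (0.40, 0.0382) and lost Myom1 (-0.26, 0.0545), which was also lost with the stricter count filter (0.0561). Size factors from the listed genes gave 1211 genes (604 higher, 607 lower) and 15 members. Same-numbered mice did not deviate together (correlations of -0.0227 to 0.0287, and the Control mouse of the same number was the best match for 0 of 5). No pairing by number was seen, but these correlations cannot exclude that such mice shared a litter or cage. With a replicate block 907 genes (391 higher) and 12 members passed, Myh3 (1.84, 0.0929) and Myom1 (-0.29, 0.0681) no longer passed and Mybpc1 (-0.38, 0.0489) did. The cause of these changes was not tested. Members with few reads limit what can be seen, as Fhl2 was too low for the test.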
